A study of Rattus norvegicus with 6 samples.

Results

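The heat shock proteins of the cytosol and of the mitochondrial matrix were examined through 10 genes of 18077 rows in the deposited gene tables. The genes are Hsf1, Hsp90aa1, Hsp90ab1, Hspa8, Hsph1, Dnajb1, Hspb1, Bag3, Hspd1 and Hspe1, and each was read by its gene name, which occurs once in the tables. All 10 had reads in every library and all 10 passed the filter on low counts. The study compared cultures labelled Ad-RNF128, which carry an adenoviral vector for the ubiquitin ligase RNF128, with cultures labelled Ad-GFP, a vector for green fluorescent protein that the labels also call WT. There were 3 libraries of polyA RNA in each group. Both groups were described as neonatal rat cardiomyocytes from pups aged 1 to 3 days, grown with serum and BrdU after pre-plating against fibroblasts, given 500 µM palmitic acid for 24 h, and harvested after 48 h. The treatment text names the overexpressed gene once as RNF28 and once as RNF128, and no label states separate animals or cultures, so p-values measure only the spread between these libraries, which may be technical.

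Heat shock proteins are molecular chaperones that bind unfolded or partly folded proteins and help them to fold, to be held soluble or to be degraded. In the cytosol, the HSP70 and HSP90 machines work with J-domain proteins, exchange factors and small heat shock proteins, while HSP60 and its HSP10 lid fold imported proteins in the mitochondrial matrix. HSF1 is the transcription factor that raises many of these genes when unfolded protein builds up, by binding heat shock elements, which are inverted repeats of the unit GAA near the gene start. In heart muscle the small heat shock proteins and BAG3 are known for protecting the contractile apparatus.

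The counts did not bear out every label. Library totals ran from 16352843 to 21708973 counts. Rnf128 had 1, 3 and 1 counts in the libraries labelled Ad-RNF128 and 0, 2 and 1 counts in Ad-GFP, so the counts of the rat gene do not bear out the label, and directions below are those of libraries labelled Ad-RNF128. Rnf157, which encodes another RING ubiquitin ligase, was at 1923, 2553 and 2090 CPM (counts scaled to the library total) in the libraries labelled Ad-RNF128, against 22.3, 39.6 and 40.4 CPM in Ad-GFP replicates 1 to 3, and which gene the vector carried cannot be told from the labels and counts. Ad-GFP replicate 1 stood apart from every other library, with Spearman correlations over all genes of 0.776 to 0.818, and it is shown separately below. The cardiomyocyte markers did not all move together, but several were near 0 in Ad-RNF128 replicate 3 alone. Myh7 had 232, 222 and 1 counts in Ad-RNF128 replicates 1 to 3, Actc1 had 299, 241 and 5, and Myl2 had 104, 107 and 6. In Ad-GFP replicates 1 to 3 Myh7 had 217, 221 and 230 counts. Actc1 had 247, 251 and 210 there, and Myl2 had 122, 110 and 85. Nkx2-5 and Gata4 did not share this, with 351 and 409 counts in Ad-RNF128 replicate 3. The alpha heavy chain gene Myh6 was at 14.3, 10.8 and 0.104 CPM in Ad-RNF128 replicates 1 to 3 and at 16, 13.4 and 11.1 CPM in Ad-GFP replicates 1 to 3. Pln was not analysed here. Tnnt2, cardiac troponin T, was at 57.4, 42.3 and 34 CPM in Ad-RNF128 and at 13.3, 342 and 350 CPM in Ad-GFP replicates 1 to 3. The summed level of 15 cardiomyocyte markers was 76.5 to 165 CPM in Ad-RNF128, against 425 to 430 CPM in Ad-GFP replicates 2 and 3 and 192 CPM in replicate 1. Tnnt2 carried that gap. Without it the sum of the other 14 was 107, 87.7 and 42.4 CPM in Ad-RNF128 replicates 1 to 3. In the same 2 controls that sum was 74.8 to 88 CPM, so the groups overlapped, with Ad-RNF128 replicate 3 the lowest. The summed level of 9 fibroblast markers was 10538 to 11450 CPM in Ad-RNF128, against 38416 to 40049 CPM in those 2 controls and 3243 CPM in replicate 1. Against Ad-GFP replicates 2 and 3, 1 of 13 tested cardiomyocyte markers was higher (Gata4, a cardiac transcription factor) and 1 lower (Tnnt2), and 0 of 8 tested fibroblast markers were higher and 5 lower, namely Col1a1, Col1a2, Col3a1, Lum and Postn. Among all 13173 genes tested, 28.9% were called higher and 28% lower against the same 2 controls. Nppa, the atrial natriuretic peptide gene, had 0 reads in Ad-RNF128 replicate 3. Summed markers of smooth muscle were at 5142 to 5726 CPM in Ad-RNF128, against 5427 to 6026 CPM in those 2 controls. Without Acta2 they were at 1700 to 1827 against 1383 to 1535 CPM, and 2 of 5 markers were called higher and 2 lower. Those of skeletal muscle were at 47.4 to 49.8 CPM, against 101 to 104 CPM, and of macrophages and leukocytes at 22.7 to 22.9 CPM, against 16.8 to 17.4 CPM. These groups stayed apart without Myod1 and Cd14, while for single genes the CPM of the groups did not overlap for 72.3% of all tested. Those of endothelium were at 6.75 to 8.07 CPM, against 4.41 to 4.76 CPM. Vwf carried this gap: without it the sums overlapped (0.519 to 1.46 against 0.703 to 0.72 CPM), and 5 of 6 markers were under 1 CPM in these 5 libraries. Bulk counts cannot tell fewer cells of a type from less RNA per cell, and the part of these shifts in the results below was not tested. Col1a1 alone was at 17690 and 18266 CPM in Ad-GFP replicates 2 and 3, far above the Myh6 values given above. Against Ad-GFP replicates 2 and 3, 5 of 7 tested skeletal muscle markers were called lower and 1 higher. The higher marker was Mymk, at 5.09, 4.1 and 4.47 CPM in Ad-RNF128 replicates 1 to 3. It was at 8.93, 1.72 and 1.69 CPM in Ad-GFP replicates 1 to 3. The skeletal muscle regulators Myod1 and Myog were at 50.5 and 33 CPM in Ad-GFP replicate 2, and at 25.3 and 7.43 CPM in Ad-RNF128 replicate 1. These levels do not bear out the described cell type, so the results below belong to the cultures as a whole.

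The windows around the gene starts show how far these genes share the heat shock element. A window of 250 bases before to 50 bases after the start was found for 8 of the 10 genes in RefSeq's rat assembly GRCr8. The element searched was GAANNTTCNNGAA, 3 alternating units, on both strands, where the other strand reads TTCNNGAANNTTC. It was present in 4 of the 8 windows, those of Hspa8, Hsph1, Hspd1 and Hspe1, and in 0.798% of all 33469 windows. A pair of units reads GAANNTTC (in 8.59% of all windows) or TTCNNGAA (in 8.77%), each the same on both strands and each part of the longer element. The windows of Dnajb1 and Hspb1 held GAANNTTC at 2 places each and that of Bag3 at 1, without the longer element, and the window of Hsp90ab1 held neither pair. A match is a string of letters and no measure of HSF1 binding. The stretches below are shown because they carry the element or pairs of its units, in capitals, with the bases around them. Capitals mark the 3-unit element in the first 3 stretches (2 overlapping matches in Hspe1) and pairs of units in the last 3.

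Hsph1: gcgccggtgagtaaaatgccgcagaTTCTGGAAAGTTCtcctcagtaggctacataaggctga
Hspa8: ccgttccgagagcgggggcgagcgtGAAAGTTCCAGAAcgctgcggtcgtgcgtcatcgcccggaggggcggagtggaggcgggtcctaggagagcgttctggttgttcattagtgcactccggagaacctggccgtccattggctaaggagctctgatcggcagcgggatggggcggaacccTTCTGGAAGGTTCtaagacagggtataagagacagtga
Hspe1: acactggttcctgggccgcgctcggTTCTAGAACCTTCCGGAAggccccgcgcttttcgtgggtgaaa
Dnajb1: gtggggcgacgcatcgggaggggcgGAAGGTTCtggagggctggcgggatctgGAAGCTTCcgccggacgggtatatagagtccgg
Hspb1: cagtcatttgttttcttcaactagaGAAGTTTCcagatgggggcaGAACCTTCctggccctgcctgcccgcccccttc
Bag3: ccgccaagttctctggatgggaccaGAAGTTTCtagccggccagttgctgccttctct

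The Hsph1 stretch lies at chr12:10427307-10427369 on the plus strand of GRCr8, and its element runs from position -36 to -24 relative to the start. The Hspa8 stretch, chr8:50080276-50080496 on the plus strand, holds 2 separate elements, at -213 to -201 and at -55 to -43. The Hspe1 stretch, chr9:64084237-64084304 on the plus strand, holds overlapping elements that together span 18 bases, from -65 to -48. Hspd1 is read from the opposite strand of the same locus, and its annotated start lies 290 bases from that of Hspe1. The windows of Hspd1 and Hspe1 share 211 bases, and the elements in the Hspd1 window are the same letters read on the minus strand, at -242 to -225. The Dnajb1 stretch lies at chr19:41431092-41431177 on the minus strand, with its pairs between -11 and 25, the Hspb1 stretch at chr12:26432378-26432455 on the minus strand, with its pairs between -129 and -102, and the Bag3 stretch at chr1:192533303-192533360 on the plus strand, with its pair at -132 to -125.

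Against Ad-GFP replicates 2 and 3, the heat shock protein genes moved little in the libraries labelled Ad-RNF128. Hsf1 rose 1.21-fold, the HSP70 machine genes Hsph1 and Hspa8 and the HSP90 gene Hsp90aa1 fell, and the mitochondrial gene Hspd1 fell slightly. The other 5 genes did not pass the test, and their 95% intervals ran from -0.35 to 0.15 in log2 change. The 5 of 10 genes called, 1 higher and 4 lower, stand beside 56.9% of all 13173 genes tested, 28.9% higher and 28% lower, so the share called is no result about these genes. At an unadjusted p under 0.05 the counts were 5 of 10 and 61.4% of all genes. The median absolute log2 change was 0.16 over the 10 genes and 0.33 over all genes tested. Genes were tested with edgeR's quasi-likelihood test on counts scaled by TMM, with Benjamini-Hochberg adjustment over all genes and a threshold of 0.05, and ± after a log2 change is its SE. TMM and library totals differed: the median log2 change of all genes was 0.01 with TMM and 0.17 with library totals, on which the CPM values rest.

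**Figure D1:**
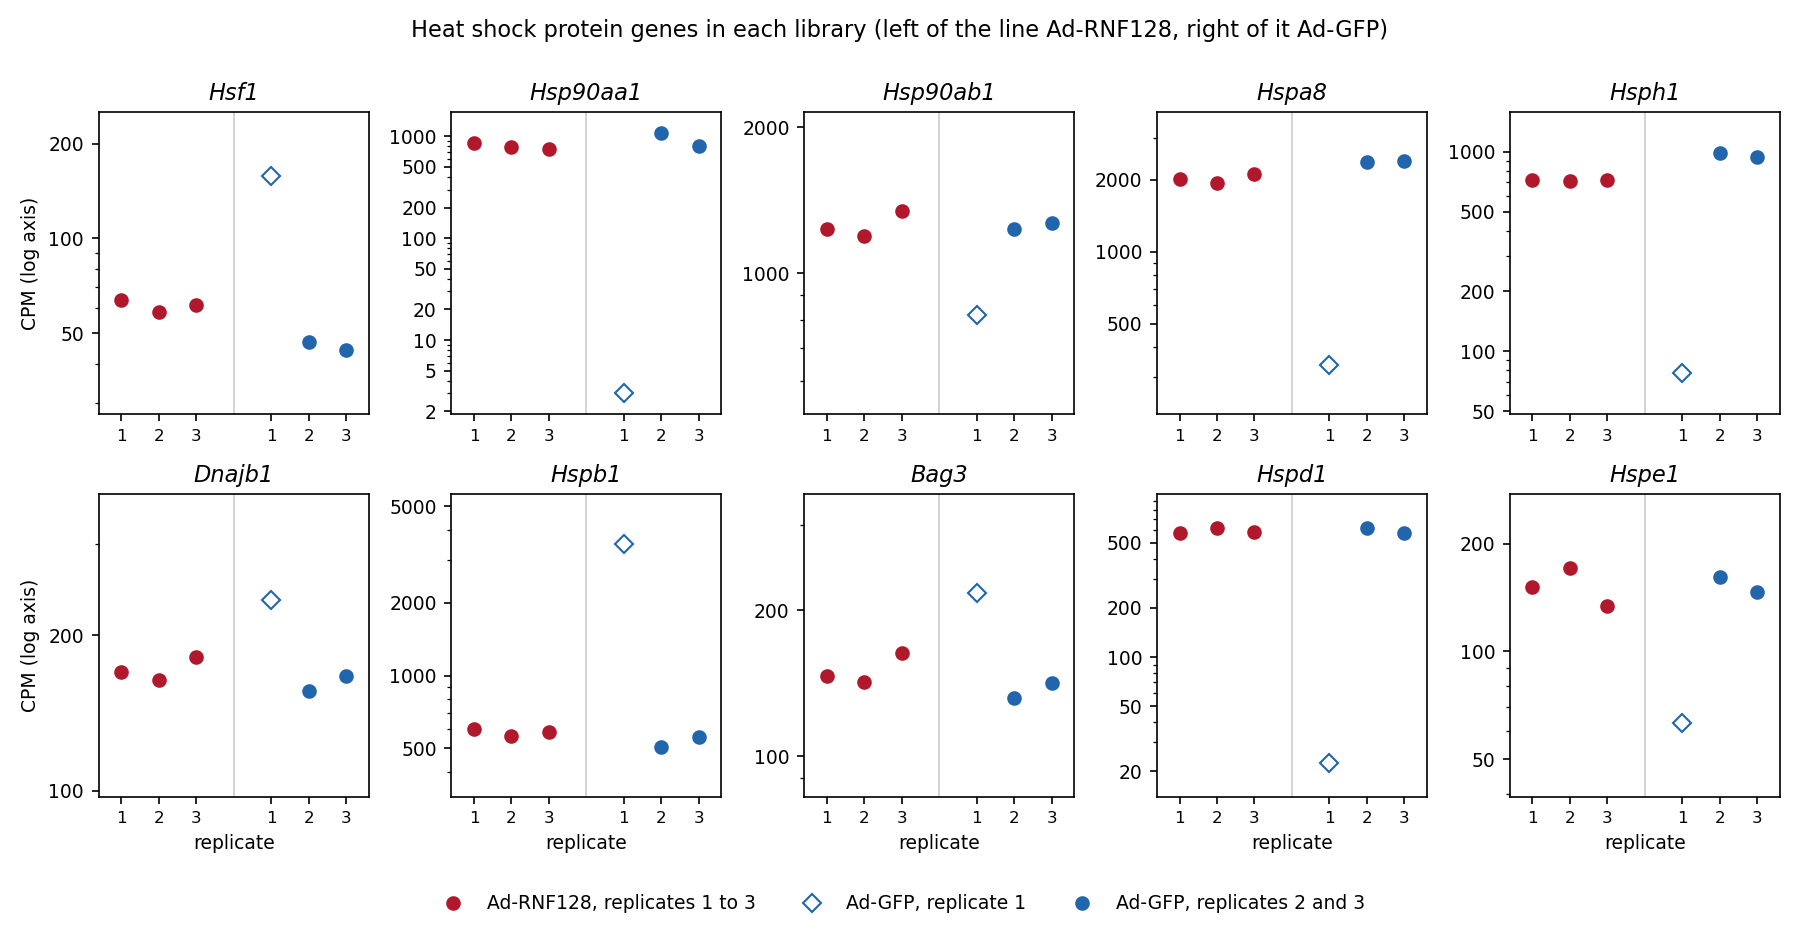
Level of each of the 10 genes in CPM, on a log axis, in the 3 libraries labelled Ad-RNF128 (red, left), in Ad-GFP replicate 1 (open blue diamond) and in Ad-GFP replicates 2 and 3 (blue circles). Replicate 1 of Ad-GFP lies outside the other 5 libraries for all 10 genes, above them for 4 and below them for 6.

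Hsf1 (ENSRNOG00000021732), the stress-activated transcription factor itself, was at 63.9, 58.4 and 61.5 CPM in the libraries labelled Ad-RNF128, against 46.8 and 44.2 CPM in Ad-GFP replicates 2 and 3. The groups did not overlap, which held for 72.3% of all genes tested (48.7% higher, 23.6% lower). Its log2 change was 0.28 ± 0.07 with an edgeR adjusted p of 0.00409, and a 95% interval of 0.12 to 0.43. Ad-GFP replicate 1 held 158 CPM, far above both groups. The list of HSF factors and their regulators, with 4 of 5 genes tested, had 0 higher and 2 lower, beside 28.9% and 28% of all genes. Its median log2 change was -0.17 (0 and 0 called, with a median of -0.02, with library totals). Hsbp1, a small protein that binds HSF1 trimers, had a log2 change of -0.22 ± 0.07 (edgeR adjusted p = 0.0127), and Hsf2, a related factor, -0.22 ± 0.08 (edgeR adjusted p = 0.0307). Neither passed with library totals alone (-0.07 with adjusted p = 0.42, and -0.07 with adjusted p = 0.512). Without Ad-GFP replicate 2 the edgeR adjusted p was 0.0597 for Hsbp1 and 0.428 for Hsf2, without Ad-RNF128 replicate 3 it was 0.0551 and 0.113, and for Hsf2 it was 0.059 and 0.0865 without Ad-RNF128 replicates 1 and 2. Hsf4, a factor known for its role in the lens, had -0.12 ± 0.20 (edgeR adjusted p = 0.634). The log2 changes of Hsbp1, Hsf2 and Hsf4 over all 6 libraries were 0.095, 0.33 and -1.27.

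HSP70 pulls on unfolded chains in cycles of ATP hydrolysis, and Hspa8 (ENSRNOG00000034066) encodes its constitutive form, HSC70. Hspa8 was at 2014, 1931 and 2122 CPM in the libraries labelled Ad-RNF128, against 2361 and 2394 CPM in Ad-GFP replicates 2 and 3. Every library labelled Ad-RNF128 lay below both controls. The log2 change was -0.39 ± 0.07 (edgeR adjusted p = 0.000152, 95% interval -0.53 to -0.25), and -0.23 with library totals, which also passed (adjusted p = 0.0031). Ad-GFP replicate 1 held 336 CPM.

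Hsph1 (ENSRNOG00000000902) encodes HSP110, a nucleotide exchange factor that resets HSP70 and takes part in dissolving aggregates. It was at 719, 708 and 722 CPM in the libraries labelled Ad-RNF128, against 985 and 945 CPM in Ad-GFP replicates 2 and 3. The groups did not overlap, and the 3 libraries labelled Ad-RNF128 lay close together. Its log2 change of -0.58 ± 0.06 (edgeR adjusted p = 1.04e-06, 95% interval -0.71 to -0.46) had the largest size among the 10 genes, and it was -0.43 with library totals. Ad-GFP replicate 1 held 77.3 CPM.

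Dnajb1 (ENSRNOG00000021824), the J-domain protein HSP40 that hands clients to HSP70, was at 170, 164 and 181 CPM in the libraries labelled Ad-RNF128, against 156 and 167 CPM in Ad-GFP replicates 2 and 3. The groups overlapped. The log2 change was -0.07 ± 0.07 (edgeR adjusted p = 0.451, 95% interval -0.22 to 0.09), and 0.09 with library totals. Bag3 (ENSRNOG00000020298), an exchange factor that links HSP70 to autophagy, was at 146, 142 and 163 CPM in the libraries labelled Ad-RNF128, against 132 and 141 CPM in Ad-GFP replicates 2 and 3. Its CPM values did not overlap, with all 3 libraries labelled Ad-RNF128 above the controls, yet the log2 change with TMM was -0.01 ± 0.08 (edgeR adjusted p = 0.885, 95% interval -0.18 to 0.15) and 0.14 with library totals (adjusted p = 0.108). Its direction therefore depends on the scaling.

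Hspb1 (ENSRNOG00000023546), the small heat shock protein HSP27 (HSP25 in rodents), holds clients soluble without ATP. It was at 603, 562 and 583 CPM in the libraries labelled Ad-RNF128, against 507 and 558 CPM in Ad-GFP replicates 2 and 3. The groups did not overlap, but the lowest library labelled Ad-RNF128, at 562 CPM, lay close to the higher control. The log2 change was -0.03 ± 0.07 (edgeR adjusted p = 0.771, 95% interval -0.18 to 0.12) and 0.13 with library totals (adjusted p = 0.086), so its direction also depends on the scaling. Ad-GFP replicate 1 held 3493 CPM, or 6.56 times the mean of Ad-GFP replicates 2 and 3.

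HSP90 matures kinases, hormone receptors and other client proteins, and the genome carries a stress-inducible and a constitutive cytosolic form. The inducible form, Hsp90aa1 (ENSRNOG00000059714), was at 860, 790 and 744 CPM in the libraries labelled Ad-RNF128, against 1081 and 799 CPM in Ad-GFP replicates 2 and 3. The groups overlapped, since Ad-GFP replicate 3 lay among the libraries labelled Ad-RNF128. The log2 change was -0.39 ± 0.09 (edgeR adjusted p = 0.00266, 95% interval -0.59 to -0.19), and the call ended without Ad-GFP replicate 2 (-0.18, edgeR adjusted p = 0.0681) and with library totals (-0.24, adjusted p = 0.0643). Without Ad-GFP replicate 3 the log2 change was -0.57. The constitutive form, Hsp90ab1 (ENSRNOG00000019834), was at 1235, 1192 and 1344 CPM in the libraries labelled Ad-RNF128, against 1235 and 1268 CPM in Ad-GFP replicates 2 and 3. These groups overlapped, and the log2 change was -0.15 ± 0.07 (edgeR adjusted p = 0.0832, 95% interval -0.30 to 0.00), or 0.01 with library totals. It passed without Ad-GFP replicate 2 (-0.19, edgeR adjusted p = 0.0475) and without Ad-RNF128 replicate 3 (-0.19, edgeR adjusted p = 0.0359). The families of Hsp90aa1, Hsp90ab1, Hspa8, Hspd1 and Hspe1 include near-identical copies in the genome, so the split of their reads is uncertain.

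The mitochondrial pair makes a folding chamber of HSP60 subunits, from Hspd1, closed by a lid of HSP10, from Hspe1. Hspd1 (ENSRNOG00000014525) was at 579, 617 and 581 CPM in the libraries labelled Ad-RNF128, against 619 and 575 CPM in Ad-GFP replicates 2 and 3. The groups overlapped almost fully, and the call at a log2 change of -0.16 ± 0.06 (edgeR adjusted p = 0.037, 95% interval -0.30 to -0.03) rests on the scaling, since it was -0.01 with library totals (adjusted p = 0.901). It also ended without Ad-GFP replicate 2 (adjusted p = 0.134) and without Ad-RNF128 replicates 1, 2 and 3 in turn (edgeR adjusted p of 0.163, 0.0528 and 0.106). Hspe1 (ENSRNOG00000051624) was at 151, 171 and 134 CPM in the libraries labelled Ad-RNF128, against 161 and 146 CPM in Ad-GFP replicates 2 and 3. These groups overlapped too, with a log2 change of -0.17 ± 0.09 (edgeR adjusted p = 0.114, 95% interval -0.35 to 0.02) that passed without Ad-RNF128 replicate 2 (-0.25, edgeR adjusted p = 0.0163).

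**Figure D2:**
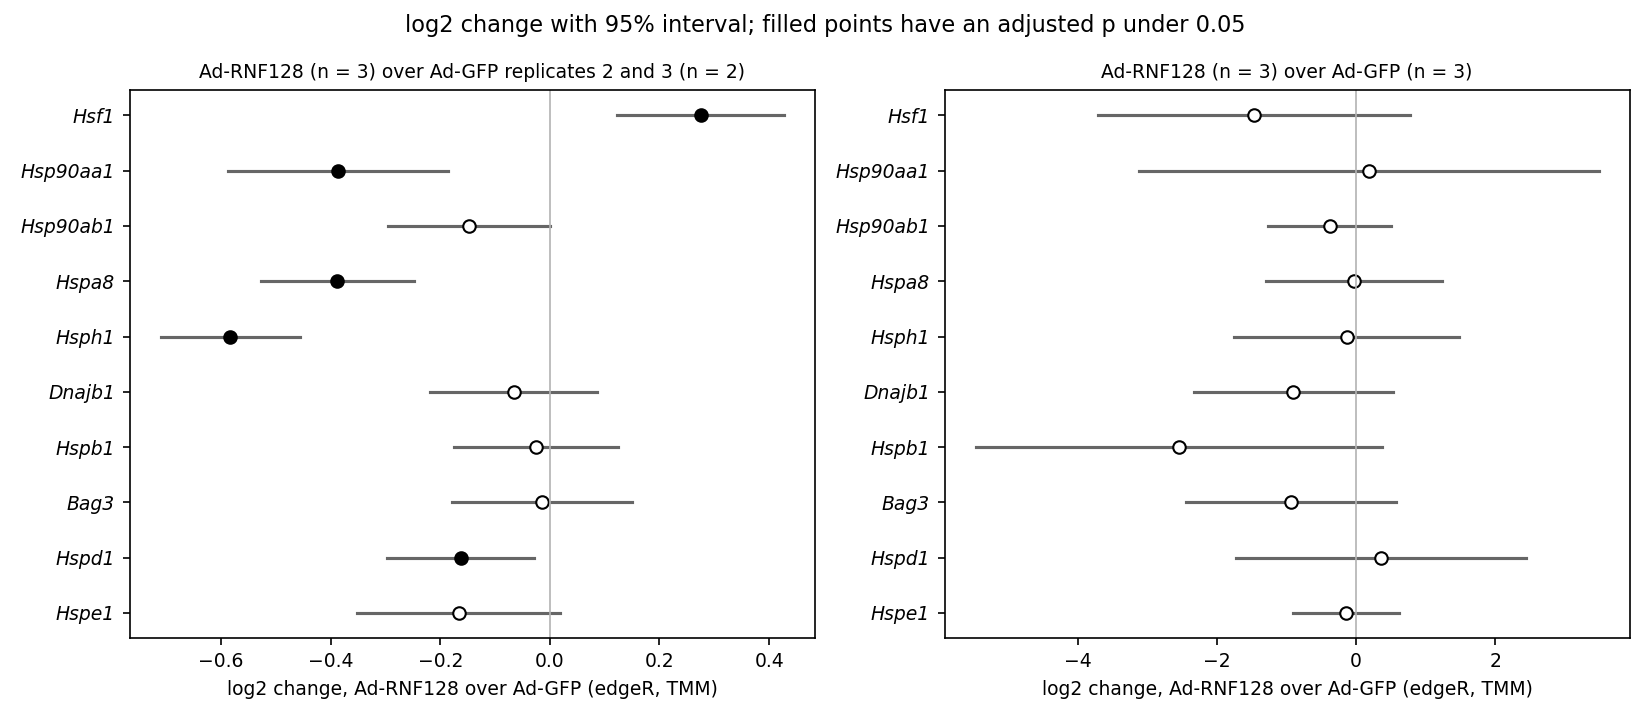
log2 change of each gene, Ad-RNF128 over Ad-GFP, from edgeR with TMM scaling, with its 95% interval, without Ad-GFP replicate 1 (left panel) and over all 6 libraries (right panel, wider axis). Filled points have an adjusted p under 0.05, which 5 genes reached in the left panel and 0 in the right.

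With all 6 libraries, 0 of the 10 genes were called by edgeR, beside 0% of 12863 genes tested. At an unadjusted p under 0.05 the counts were 0 of the 10 genes and 742 of all genes (5.77%), and DESeq2 called 386 genes in all. For 0 of the 10 genes did the 2 groups separate in CPM, against 34% of all genes tested (30.4% higher, 3.59% lower). The intervals were wide. The log2 change was -1.47 for Hsf1 (95% interval -3.72 to 0.77) and -2.55 for Hspb1 (95% interval -5.48 to 0.38). It was 0.18 for Hsp90aa1, with a 95% interval of -3.13 to 3.49. TMM gave Ad-GFP replicate 1 a scaling factor of 0.47, against 1.08 to 1.22 for the other libraries.

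Ad-GFP replicate 1 split the family. Hsf1, Dnajb1, Hspb1 and Bag3 were higher in it than in all 5 other libraries, and the remaining 6 genes were lower than in all 5. Being outside the other libraries is common in it: 24.5% of all genes tested lay above and 66.2% below. Hsp90aa1 had 49 counts in it, or 3 CPM (95% Poisson interval 2.22 to 3.96 CPM, counting error only), which is 314 times lower than the mean of Ad-GFP replicates 2 and 3. Hspd1 was at 22.4 CPM in it (26.7 times lower), while its partner Hspe1 was at 62.9 CPM (2.44 times lower). Hsp90ab1 was at 819 CPM, Dnajb1 at 234 CPM and Bag3 at 217 CPM in this library, 1.53 times lower, 1.45 times higher and 1.59 times higher than the mean of Ad-GFP replicates 2 and 3. The median absolute log2 ratio to those replicates, with 1 CPM added, was 2.24 over the 10 genes and 1.86 over all genes tested.

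Ratios of 2 counts within a library do not depend on scaling. The ratio of Hspe1 to Hspd1 was 0.261, 0.278 and 0.23 in the libraries labelled Ad-RNF128, against 0.261 and 0.254 in Ad-GFP replicates 2 and 3 and 2.81 in replicate 1. The groups overlapped, and only Ad-GFP replicate 1 differed from the other 5 libraries beyond their range. The ratio of Hsph1 to Hspa8 was 0.357, 0.367 and 0.34 in the libraries labelled Ad-RNF128, against 0.417 and 0.395 in Ad-GFP replicates 2 and 3 and 0.23 in replicate 1. It was lower in every library labelled Ad-RNF128 than in those 2 controls. The ratio of Dnajb1 to Hspa8 was 0.0843, 0.0849 and 0.0853 in the libraries labelled Ad-RNF128, against 0.0661 and 0.0696 in Ad-GFP replicates 2 and 3 and 0.695 in replicate 1. The ratio of Bag3 to Hspa8 was 0.0727, 0.0737 and 0.0768 in the libraries labelled Ad-RNF128, against 0.0559 and 0.059 in Ad-GFP replicates 2 and 3 and 0.645 in replicate 1. Both ratios were thus higher in all 3 libraries labelled Ad-RNF128 than in these 2 controls, and lower than in Ad-GFP replicate 1. The denominator Hspa8 had a log2 change of -0.39, against -0.07 for Dnajb1 and -0.01 for Bag3. The ratio of Hspb1 to Hspa8 separated in the same way, at 0.299, 0.291 and 0.275 in Ad-RNF128 against 0.215 and 0.233 in these 2 controls. The share of all genes whose ratio to Hspa8 separates was not counted, so this is no result particular to HSP70 partners. The ratio of Hspb1 to Bag3 was 4.12, 3.95 and 3.58 in the libraries labelled Ad-RNF128, against 3.84 and 3.96 in Ad-GFP replicates 2 and 3, which overlapped, and 16.1 in replicate 1. The ratio of Hsp90aa1 to Hsp90ab1 was 0.697, 0.663 and 0.553 in the libraries labelled Ad-RNF128, against 0.875 and 0.63 in Ad-GFP replicates 2 and 3, which also overlapped, and 0.00366 in replicate 1. Together the 10 genes took 0.654%, 0.634% and 0.664% of counts in the libraries labelled Ad-RNF128, against 0.728% and 0.704% in Ad-GFP replicates 2 and 3 and 0.542% in replicate 1.

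**Figure D3:**
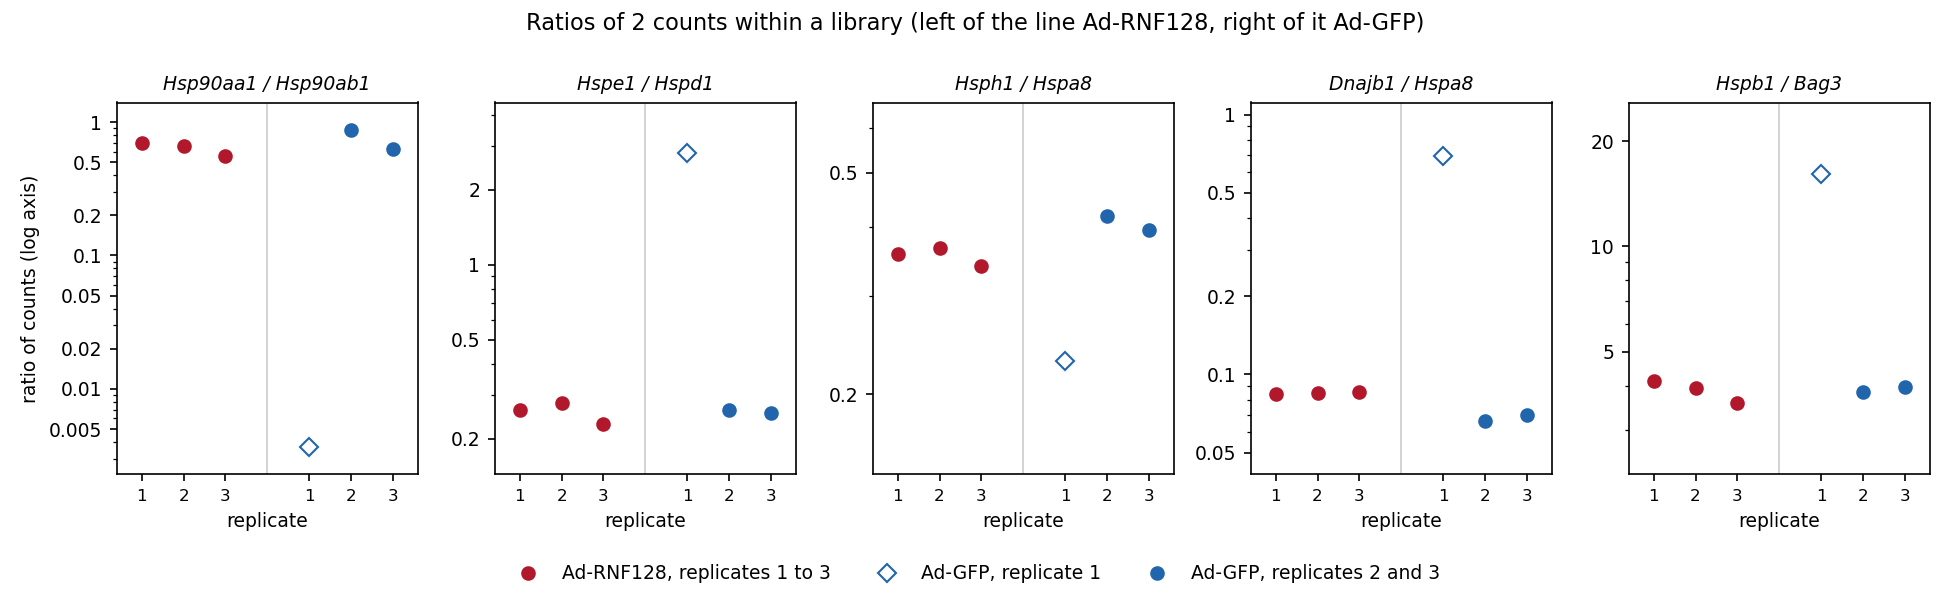
Ratio of the counts of 2 genes within each library, on a log axis, for 5 pairs, in the libraries labelled Ad-RNF128 (red, left), Ad-GFP replicate 1 (open blue diamond) and Ad-GFP replicates 2 and 3 (blue circles). The ratio of Dnajb1 to Hspa8 lies at 0.0843 to 0.0853 in Ad-RNF128 and at 0.0661 and 0.0696 in Ad-GFP replicates 2 and 3, while that of Hspe1 to Hspd1 overlaps.

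The other chaperone genes were followed through 8 lists, and here too genes of 1 family went both ways against Ad-GFP replicates 2 and 3. Over all 6 libraries edgeR called 0 genes of any of these lists. Against those 2 controls 28.9% of all genes tested were called higher and 28% lower. With library totals 5367 of 13173 genes were called higher and 2409 lower. The counts of each list stand beside these shares and were not tested against them. In the list of further HSP70 and HSP110 genes, 8 of 10 were among the rows and 7 were tested, of which 1 rose and 2 fell (median log2 change -0.22), against 2 and 1 with library totals. Hspa4l, an HSP110 relative of Hsph1, was at 16.6, 20 and 16.3 CPM in the libraries labelled Ad-RNF128, against 7.37 and 6.28 CPM in Ad-GFP replicates 2 and 3 and 0.55 CPM in replicate 1. It rose with a log2 change of 1.22 ± 0.13 (edgeR adjusted p = 1.79e-06), so the members of the HSP110 family Hsph1 and Hspa4l had opposite signs. Hspa14, a ribosome-associated HSP70, fell by 0.42 on the log2 scale (edgeR adjusted p = 0.000371). Hspa2, an HSP70 known from the testis, had a log2 change of -0.37 ± 0.15 (edgeR adjusted p = 0.0492). The log2 changes of Hspa4l, Hspa14 and Hspa2 over all 6 libraries were 1.65, 0.03 and 0.13. The Hspa2 call ended with library totals (adjusted p = 0.234) and without Ad-GFP replicate 2 or 3 (edgeR adjusted p of 0.104 and 0.138), and without Ad-RNF128 replicate 1 or 2 (0.18 and 0.0959), and also with DESeq2 (adjusted p = 0.125), a stricter low-count filter (0.0591) and the replicate number as a block (0.157).

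In the list of small heat shock proteins, 7 of 8 were among the rows and 6 were tested. Of these 3 rose and 2 fell (median log2 change 0.20), against 4 and 1 with library totals. Cryab, the alpha B-crystallin of heart and skeletal muscle, was at 122, 121 and 123 CPM in the libraries labelled Ad-RNF128, against 176 and 176 CPM in Ad-GFP replicates 2 and 3 and 292 CPM in replicate 1. It fell by 0.68 on the log2 scale (edgeR adjusted p = 3.21e-07), beside the Tnnt2 values given above, while the other cardiomyocyte markers overlapped in sum. Hspb8, the partner of BAG3 in clearing damaged muscle proteins, rose with a log2 change of 0.36 ± 0.08 (edgeR adjusted p = 0.00185). Hspb11 rose by 0.67 ± 0.19 (edgeR adjusted p = 0.00826), but not without Ad-GFP replicate 3 (0.49, edgeR adjusted p = 0.0882). It is in the list by its gene name, and whether it acts as a small heat shock protein was not tested. The log2 changes of Cryab, Hspb8 and Hspb11 over all 6 libraries were -1.65, -1.36 and 0.74.

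Cytosolic J-domain genes numbered 11, all tested, of which 4 rose and 1 fell (median log2 change 0.05). Dnajb6, which keeps aggregation-prone proteins soluble, was at 142, 145 and 135 CPM in the libraries labelled Ad-RNF128, against 91.2 and 92.6 CPM in Ad-GFP replicates 2 and 3 and 23.5 CPM in replicate 1. Its log2 change was 0.46 ± 0.07 (edgeR adjusted p = 3.68e-05). Dnaja4 rose by 0.58 ± 0.09 (edgeR adjusted p = 4.46e-05) and Dnajb4 by 0.31 ± 0.07 (edgeR adjusted p = 0.00206). With library totals 6 of the list rose and 0 fell.

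Of 19 cochaperones of HSP90 and HSP70, 18 were tested, of which 4 rose and 5 fell (median log2 change 0.01). Ahsa1, which stimulates the HSP90 ATPase, was at 92.9, 97.7 and 93.9 CPM in the libraries labelled Ad-RNF128, against 137 and 120 CPM in Ad-GFP replicates 2 and 3 and 115 CPM in replicate 1. It fell by 0.59 on the log2 scale (edgeR adjusted p = 3.38e-06), and its relative Ahsa2 fell by 0.62 (edgeR adjusted p = 8.89e-05). Fkbp5, a glucocorticoid-induced HSP90 immunophilin, rose with a log2 change of 0.52 ± 0.07 (edgeR adjusted p = 3.23e-05). With library totals 9 rose and 5 fell.

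The ring chaperonin CCT, which folds actin and tubulin, and its feeder prefoldin made a list of 14 genes with 13 tested, of which 4 rose and 3 fell (median log2 change -0.05). The 3 with the smallest p were prefoldin genes, all of which rose. Pfdn2 had a log2 change of 0.48 ± 0.09 (edgeR adjusted p = 0.000242). Pfdn4 had 0.42 ± 0.10 (edgeR adjusted p = 0.00161) and Pfdn5 0.28 ± 0.07 (edgeR adjusted p = 0.002). The log2 changes of Pfdn2, Pfdn4 and Pfdn5 over all 6 libraries were -1.42, 0.52 and -1.16. With library totals 6 of the list rose and 0 fell.

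Of 16 mitochondrial chaperones and proteases 15 were tested, of which 8 rose and 2 fell, beside 28.9% higher and 28% lower among all genes (median log2 change 0.31, beside 0.01 for all genes). With library totals 10 rose and 0 fell (median 0.47, beside 0.17 for all genes). Lonp1, the matrix protease that degrades damaged proteins, was at 406, 424 and 419 CPM in the libraries labelled Ad-RNF128, against 156 and 151 CPM in Ad-GFP replicates 2 and 3 and 668 CPM in replicate 1. It rose with a log2 change of 1.29 ± 0.06 (edgeR adjusted p = 3.45e-10), and over all 6 libraries the log2 change was -0.73 (edgeR adjusted p = 0.892). Dnaja3, the J-domain partner of mitochondrial HSP70, rose by 0.65 ± 0.08 (edgeR adjusted p = 5.39e-06). Clpp, a matrix protease subunit, rose by 0.61 ± 0.08 (edgeR adjusted p = 2.33e-05). The log2 changes of Dnaja3 and Clpp over all 6 libraries were 0.32 and -2.49. The chaperonin genes Hspd1 and Hspe1 did not share the rise, with log2 changes of -0.16 and -0.17 without Ad-GFP replicate 1. Mitochondrial genome genes took 3.08% to 3.32% of counts in the libraries labelled Ad-RNF128. They took 4.91% and 5.35% in Ad-GFP replicates 2 and 3 and 0.951% in replicate 1. With these genes left out of the fit, Hspd1 and Hspe1 had log2 changes of -0.16 and -0.17. In that fit 5 of the 10 heat shock protein genes were called. Any other part of this share in the result was not tested.

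In a list of 8 other genes set down as HSF1-responsive, 1 rose and 3 fell (median log2 change -0.02). With library totals 3 rose and 2 fell (median 0.14). Whether each of these genes responds to HSF1 was not tested. Serpinh1, the collagen chaperone HSP47 of the endoplasmic reticulum, was at 2355, 2451 and 2392 CPM in the libraries labelled Ad-RNF128, against 4704 and 4967 CPM in Ad-GFP replicates 2 and 3 and 3375 CPM in replicate 1. It fell by 1.17 on the log2 scale (edgeR adjusted p = 1.08e-09), beside the lower collagen genes of the fibroblast list given above. Rgs2, a regulator of G protein signalling, rose with a log2 change of 1.44 ± 0.10 (edgeR adjusted p = 2.45e-08). Hsp90b1, the HSP90 of the endoplasmic reticulum, fell by 0.50 (edgeR adjusted p = 9.8e-06). The log2 changes of Serpinh1, Rgs2 and Hsp90b1 over all 6 libraries were -1.44, 1.87 and 0.02.

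**Figure D4:**
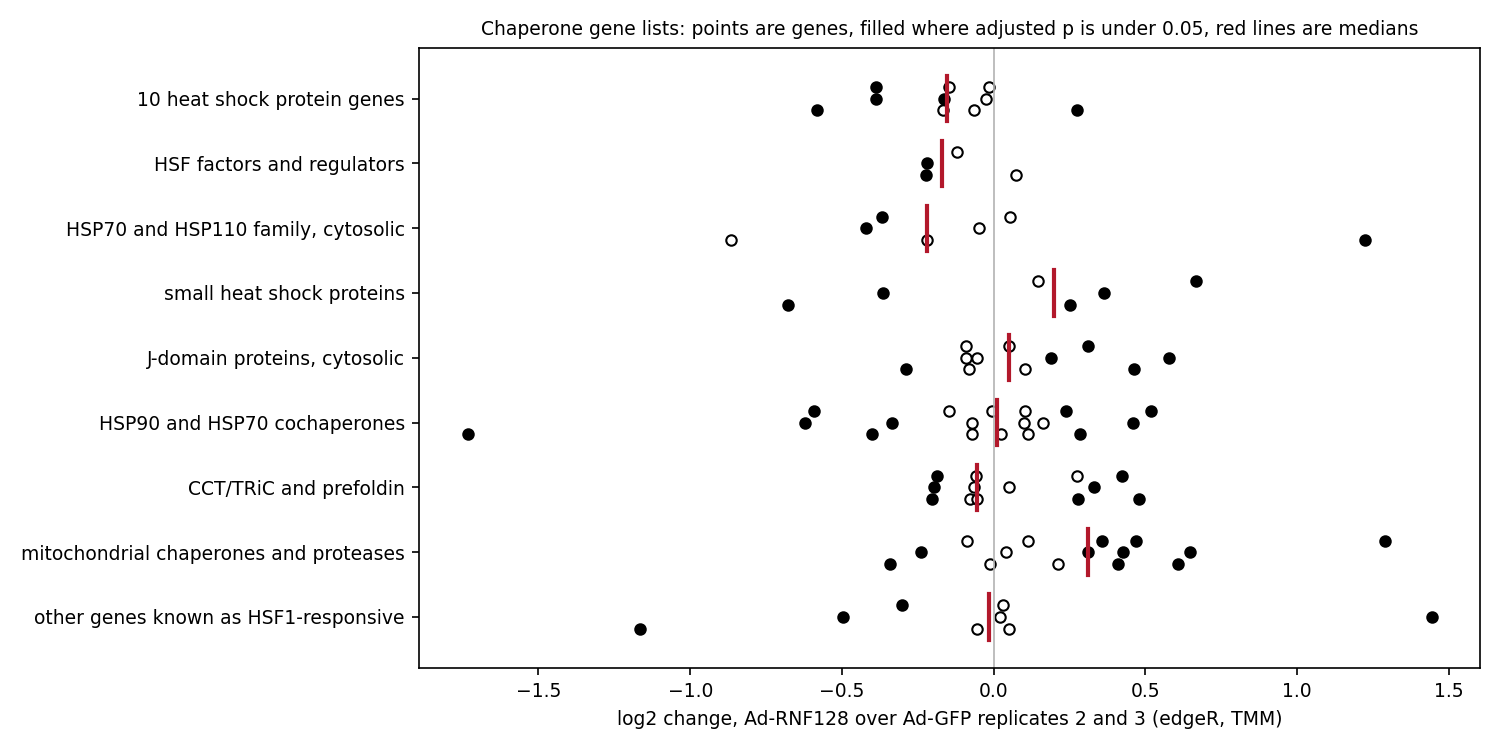
log2 change of each tested gene, Ad-RNF128 over Ad-GFP replicates 2 and 3 (edgeR, TMM), for the 10 heat shock protein genes and 8 further lists, with filled points at an adjusted p under 0.05 and red lines at the medians. The medians run from -0.22 (HSP70 and HSP110) to 0.31 (mitochondrial chaperones and proteases).

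Holding the 3-unit element near the start did not go with one direction. Of the 13173 genes tested, 9275 were matched by name to a window, and 49 of these windows held the element. Of the 49 genes 18 were higher and 12 lower (36.7% and 24.5%), with a median log2 change of 0.09. Of the 9226 matched genes without it 29.2% were higher and 29.6% lower, with a median log2 change of 0.01. The 49 include 4 of the 10 genes, so they are no set apart from these. Of the 4, Hsph1, Hspa8 and Hspd1 were called lower, and Hspe1 was not called. Hspd1 and Hspe1 hold the same letters at a shared locus, and the Hspd1 call ended with library totals.

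Genes whose level ran most like that of Hsf1 over the 6 libraries were sought among 10253 genes with a mean of at least 5 CPM, by Pearson's r of log2(CPM + 1). The 3 highest were Oxa1l, Pusl1 and Adck5, each with r of 0.999 over 6 libraries and 0.996 to 0.997 over the 5 without Ad-GFP replicate 1. Adck5 was at 24.4, 22.7 and 23.9 CPM in the libraries labelled Ad-RNF128, against 94.7, 16.8 and 15.7 CPM in Ad-GFP replicates 1 to 3. These values share 6 libraries of which 1 stands apart, and are given as a description.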

How the data were processed

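PolyA RNA was sequenced in 6 libraries. The authors deposited counts per gene, made with HISAT2 and HTSeq 0.13.5 on mRatBN7.2 per the submitters' processing notes. The strand setting is unknown here, so reads of overlapping and antisense genes cannot be separated. In the deposited column of Ad-GFP replicate 1 a single value was not whole (1 value), so the column was listed under expected counts and rounded. Of 18077 rows 106 repeat an ID, and the members' rows do not. CPM, counts divided by the library total and multiplied by 1000000, were computed from these. edgeR 4.0.16 in R 4.3.3 was run with filterByExpr, TMM and quasi-likelihood F-tests, adjusted over all genes with a threshold of 0.05. The SE was derived from the log2 change and its F statistic, and 95% intervals use the degrees of freedom of the fit. DESeq2 1.42.0, limma-voom (limma 3.58.1) and other alternatives were run, and the fits were tested on simulated data. The members, the gene and marker lists, the alternatives and the separate treatment of Ad-GFP replicate 1 were chosen with earlier results of these data known. Named genes are all 10 members and, in each pathway list, the 3 with the smallest p. Promoter windows are RefSeq's for GRCr8, a build other than that of the counts, matched by symbol. Poisson intervals cover counting error only.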

Additional observations from a re-analysis of the deposited data

How the results depend on the processing

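Other scalings, filters, tools, a threshold of 0.01, a replicate block and leaving out each library were tried, and leaving out mitochondrial genome genes was added after seeing the data. Without Ad-GFP replicate 1, Hsf1, Hspa8 and Hsph1 kept their direction and an adjusted p under 0.05 in every alternative run, with log2 changes of 0.25 to 0.43, -0.42 to -0.23 and -0.59 to -0.43. With library totals 3 of the 10 genes were called, 1 higher and 2 lower, beside 7776 of 13173 genes tested, 5367 higher and 2409 lower. Thus 69% of all calls were higher, against 50.8% with TMM. The genes that changed sign were not called under any alternative that changed it, and the cause was not tested. With library totals the log2 change was 0.0068 for Hsp90ab1, 0.089 for Dnajb1, 0.13 for Hspb1 and 0.14 for Bag3. Leaving out 1 library at a time, it ran from -0.14 to 0.0096 for Dnajb1, from -0.12 to 0.073 for Hspb1 and from -0.088 to 0.062 for Bag3. Same-numbered libraries deviated with correlations of -0.20, 0.03 and -0.17 over all 6 libraries. Without Ad-GFP replicate 1 the 2 pairs left give a single value, 0.15, since with 2 libraries per group the deviations mirror each other. These values are too few to decide. The labels do not say that a number marks a shared culture, so the numbers were not taken to pair them. With the replicate block Bag3 was at 0.0072, and Hsp90ab1 (-0.13, edgeR adjusted p = 0.0316) and Hspe1 (-0.17, edgeR adjusted p = 0.0275) passed.

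Over all 6 libraries, edgeR called 8 genes with library totals, DESeq2 called 386 and limma-voom 14. Leaving out 1 library at a time gave 0 to 7501 genes and 0 to 5 of the 10 heat shock protein genes, the upper values without Ad-GFP replicate 1. Those log2 changes ran from -1.90 to 0.28 for Hsf1, from -0.39 to 0.80 for Hsp90aa1, from -0.39 to 0.23 for Hspa8, from -0.58 to 0.18 for Hsph1 and from -0.16 to 0.74 for Hspd1. With library totals they were 0.18 for Hsp90ab1, 0.25 for Hspa8, 0.10 for Hsph1 and 0.30 for Hspe1. With limma-voom they were 0.12 for Hspa8 and 0.19 for Hsph1, and with the replicate block 0.13 and 0.18. DESeq2 gave no adjusted p for Hsf1 and Hspb1. The median log2 change of all genes was -0.02 with TMM, 0.35 with library totals and -0.16 with median-of-ratios size factors.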
